A study of Homo sapiens with 12 samples.

Results

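SAMD9 and SAMD9L are paralogous genes that lie next to each other on human chromosome 7. They were taken from the deposited gene table by their Ensembl identifiers, ENSG00000205413.8 for SAMD9 and ENSG00000177409.12 for SAMD9L, which gave 2 genes of 60669. Both were among the 16393 genes with enough counts to be tested. Messenger RNA was sequenced from HT1080, a human fibrosarcoma cell line, in 12 libraries. All of the cells stably expressed dCas9, the cleavage-deficient Cas9 of CRISPR interference, and were kept under blasticidin and puromycin selection. GFP cells carried a control guide RNA aimed at GFP. LTR8B cells carried one aimed at a retroviral long terminal repeat of the LTR8B family that lies in the first intron of SP140. Cells of each kind were untreated or were given 10 U/mL of interferon beta (IFNB) over 4 h, which gave 2 libraries each of GFP untreated and GFP IFNB and 4 each of LTR8B untreated and LTR8B IFNB. The labels name 1 guide genotype per arm and say neither whether a line was a clone nor whether libraries of a group came from different cultures. The p-values therefore speak only for the spread from library to library, which may be technical.

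SAMD9 and SAMD9L encode large cytoplasmic proteins with a sterile alpha motif near the N terminus and a central P-loop NTPase region of the STAND class. Both genes respond to type I interferon, and both proteins restrict poxviruses, which encode antagonists of them, and can shut down translation by cutting phenylalanine tRNA. Inherited gain-of-function variants of either gene limit cell growth and are known from bone marrow failure with loss of chromosome 7. Type I interferon acts through the receptor IFNAR1/IFNAR2 and the kinases JAK1 and TYK2 on the transcription factor complex ISGF3, which binds interferon-stimulated response elements near the start of its target genes.

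Both genes are on the minus strand of hg38 in the GENCODE release 29 annotation. SAMD9 spans chr7:93099513-93118023 with 3 transcripts, and its whole coding sequence of 4767 bases lies in 1 exon at chr7:93101331-93106097. SAMD9L spans chr7:93130055-93148369 with 9 transcripts, and its coding sequence of 4752 bases also lies in 1 exon, at chr7:93131220-93135971. The genes are separated by 12031 bases, their starts by 30346 bases, and 0 other annotated genes overlap either of them. An alignment of the coding sequences paired 4642 bases, of which 3448 (74.3%) were identical, with a longest identical run of 32 bases. Of the 6854 different words of 31 bases in the SAMD9 transcripts, 2 also occurred in SAMD9L and 0 in any other gene. Of the 7255 words in the SAMD9L transcripts, 12 occurred in other genes. Nothing in the sources used here gives the read length or the authors' handling of sequence shared between genes.

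The upstream windows of the genes are shown because both responded to interferon and because they carry different arrangements of the letters that interferon-responsive factors bind. They come from the RefSeq promoter table (GRCh38.p14), which held a window for 2 of the 2 genes, from 250 bases before to 50 bases after the RefSeq start. The part printed lies before both the RefSeq and the GENCODE start, at chr7:93118024-93118229 for SAMD9 and chr7:93148386-93148635 for SAMD9L, on the minus strand and written 5′ to 3′. Capitals mark matches to GAAANNGAAA, the core of an interferon-stimulated response element, or to AANNGAAA, the core bound by interferon regulatory factors, searched on both strands. A match to the longer motif always contains a match to the shorter one.
SAMD9: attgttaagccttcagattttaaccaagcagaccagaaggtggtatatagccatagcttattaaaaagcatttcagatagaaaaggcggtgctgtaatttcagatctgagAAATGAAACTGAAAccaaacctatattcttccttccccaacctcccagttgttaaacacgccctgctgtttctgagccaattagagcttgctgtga
SAMD9L: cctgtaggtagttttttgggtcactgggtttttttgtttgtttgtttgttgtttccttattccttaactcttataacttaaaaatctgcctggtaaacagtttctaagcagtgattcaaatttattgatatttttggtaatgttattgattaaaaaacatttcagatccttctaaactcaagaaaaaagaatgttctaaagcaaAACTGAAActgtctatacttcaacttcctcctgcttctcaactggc

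The SAMD9 window held 1 match to GAAANNGAAA, with the bases GAAACTGAAA at chr7:93118106-93118115, 127 to 136 bases before the RefSeq start. It also held 2 overlapping matches to AANNGAAA, AAATGAAA and AACTGAAA, the latter inside the longer match. The SAMD9L window held 1 match to AANNGAAA, again AACTGAAA, at chr7:93148424-93148431 and 39 to 46 bases before the start, and no match to GAAANNGAAA. Within the printed windows the longest stretches common to both were 10 bases long, and AAACTGAAAC, which covers that match in each, was among the 3 of this length. GAAANNGAAA occurred in 3.57% of all 35116 windows of the table and in 3.02% of the 16533 windows of tested genes. It occurred in 12.2% of the 1056 windows of genes that rose with IFNB averaged over guides. For AANNGAAA the shares, in the same order, were 22.8%, 17.8% and 30.7%. TTCNNNGAA, the letters of a gamma-activated site, occurred in 7.66% of all windows and in neither of these. These matches are letters in a window, and binding was not measured in the data used here.

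Total counts per library ran from 12404270 to 28801579, so a count of 0 allowed up to 0.104 to 0.242 CPM, counts per 1000000 counts. CPM below is scaled by TMM, edgeR's correction for library composition. SP140, the gene whose intron the LTR8B guide targets, was at 29.8 to 32.0 CPM in the 4 GFP libraries and at 0.515 to 1.84 CPM in the 8 LTR8B libraries (log2 fold change averaged over treatments -4.61, SE 0.15, adjusted p = 1.4e-11 by edgeR with Benjamini-Hochberg adjustment). Of 9 mesenchymal markers, 7 had a mean of at least 1 CPM, and their summed level was 4234 to 5046 CPM. Epithelial markers reached this level in 0 of 5 cases (CLDN3 was at 0), endothelial markers in 2 of 4 (PECAM1 and VWF) and haematopoietic markers in 1 of 8 (CD34). The summed haematopoietic level was 1.80 to 3.25 CPM in untreated and 4.82 to 8.46 CPM in IFNB libraries, with PTPRC, the pan-leukocyte marker, below 1 CPM. Of 3 haematopoietic markers tested, 1 was called higher with IFNB averaged over guides, against 5.28% of all tested genes. The lowest level of either SAMD9 or SAMD9L in an IFNB library was 274 CPM. Which cells the RNA came from was not tested.

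SAMD9 rose with IFNB 29.5-fold in GFP cells and 26.0-fold in LTR8B cells. In untreated GFP cells it stood at 18.7 and 17.7 CPM (495 and 375 counts), and with IFNB at 518 and 556 CPM (10861 and 11173 counts). In LTR8B cells the untreated libraries held 19.0, 17.9, 19.2 and 20.3 CPM, and the IFNB libraries 461, 491, 512 and 525 CPM. Every treated library was far above every untreated one: the lowest IFNB value was 27.7 times the highest untreated value in GFP cells and 22.7 times in LTR8B cells. Group means were 18.2 ± 0.737 (SD, n = 2) and 537 ± 26.7 (SD, n = 2) CPM in GFP cells, and 19.1 ± 0.957 (SD, n = 4) and 497 ± 28.2 (SD, n = 4) CPM in LTR8B cells. In edgeR's quasi-likelihood test the log2 fold change was 4.88 (SE 0.09, adjusted p = 2.18e-16) in GFP cells and 4.70 (SE 0.07, adjusted p = 1.41e-18) in LTR8B cells.

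SAMD9L started lower and rose by a larger factor, 53.1-fold in GFP cells and 42.4-fold in LTR8B cells. It stood at 5.14 and 6.50 CPM (136 and 138 counts) in untreated GFP cells and at 307 and 311 CPM (6433 and 6259 counts) with IFNB. In LTR8B cells it stood at 6.22, 6.28, 7.40 and 7.10 CPM without and at 287, 274, 297 and 286 CPM with IFNB. Again the lowest IFNB value was above the highest untreated value, 47.2 times in GFP cells and 37.0 times in LTR8B cells. How many of all tested genes separate by treatment as these 2 genes do was not counted. Group means were 5.82 ± 0.962 (SD, n = 2) and 309 ± 3.21 (SD, n = 2) CPM in GFP cells, and 6.75 ± 0.588 (SD, n = 4) and 286 ± 9.42 (SD, n = 4) CPM in LTR8B cells. The log2 fold change was 5.74 (SE 0.11, adjusted p = 2.18e-16 by edgeR) in GFP cells and 5.40 (SE 0.08, adjusted p = 1.46e-18 by edgeR) in LTR8B cells. In bulk RNA a rise in the number of cells that express a gene and a rise in RNA per cell cannot be told apart.

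**Figure D1:**
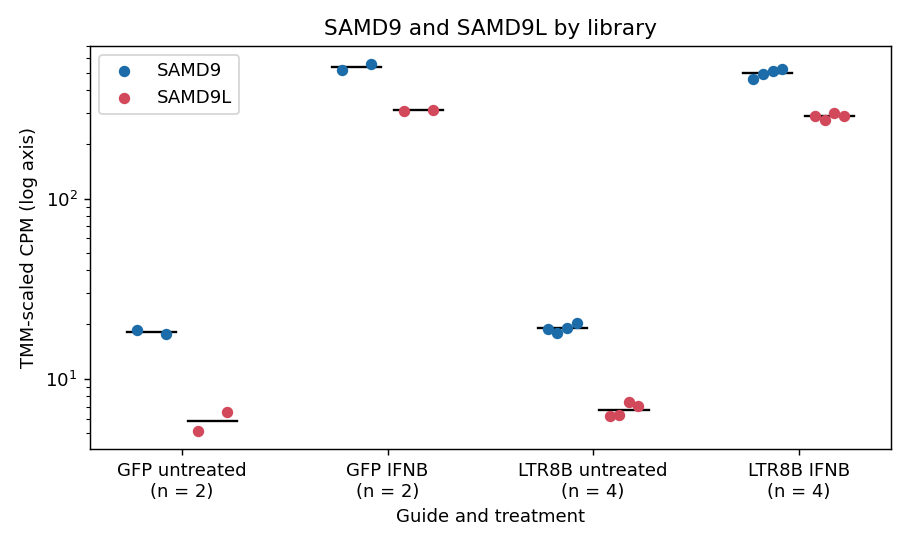
SAMD9 and SAMD9L in each library, in TMM-scaled CPM on a log axis, by guide and treatment; points are libraries and black bars are group means. The IFNB libraries of SAMD9 sit between 461 and 556 CPM and those of SAMD9L between 274 and 311 CPM, all above the untreated libraries, which reach 20.3 and 7.40 CPM.

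Both genes were called higher with IFNB in each kind of cell, against a background of 3.06% of tested genes called higher in GFP cells, 4.01% in LTR8B cells and 5.28% when averaged over guides (1.01% were called lower). The averaged log2 fold changes were 4.79 (SE 0.06) for SAMD9 and 5.57 (SE 0.07) for SAMD9L, each with an adjusted p of 1.9e-19 by edgeR. By size of this change SAMD9L ranked 26 and SAMD9 ranked 39 of 16393 genes, and by p they ranked 5 and 4. The median log2 fold change of all tested genes was -0.01. In absolute terms SAMD9 gained more than SAMD9L, with 519 against 303 CPM in GFP cells and 478 against 279 CPM in LTR8B cells. The pair took 0.00242% to 0.00275% of all counts in untreated and 0.0734% to 0.0865% in IFNB libraries.

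The spread between untreated libraries was near the counting error, except for SAMD9L in the 2 GFP libraries. SAMD9 varied by a coefficient of variation of 4.05% and 5.02% in the GFP and LTR8B untreated groups, where its counts alone give an error of 4.18% to 5.36% per library. SAMD9L varied by 16.5% and 8.71%, where its counts give 6.73% to 9.05%. The GFP value rests on 2 libraries, of which replicate 1, with 136 counts in the deeper library, was the lowest of all untreated libraries. With IFNB the coefficients were 4.98% and 5.66% for SAMD9 and 1.04% and 3.29% for SAMD9L, against counting errors of 0.946% to 1.65%. Deviations of the genes from their group means had a Pearson correlation of 0.10 over the 12 libraries and 0.46 over the 8 LTR8B libraries, given as a description, since both values of a library share its depth and scaling.

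SAMD9 was the more abundant transcript of the pair in all 12 libraries. Per kilobase of annotated exon, SAMD9 was at 2.65 ± 0.108 and SAMD9L at 0.816 ± 0.135 CPM per kb in GFP untreated cells (SD, n = 2), and at 78.3 ± 3.90 and 43.3 ± 0.450 with IFNB (SD, n = 2). In LTR8B cells SAMD9 was at 2.78 ± 0.140 and SAMD9L at 0.946 ± 0.0824 CPM per kb without IFNB (SD, n = 4), and at 72.5 ± 4.11 and 40.1 ± 1.32 with it (SD, n = 4). The SAMD9L level was thus 0.309 and 0.340 of the SAMD9 level in the untreated GFP and LTR8B groups, and 0.554 in both IFNB groups.

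The gap between the paralogs narrowed with IFNB as a ratio, although SAMD9 gained more CPM. On the log2 scale, the ratio of SAMD9L to SAMD9 counts was -1.86 and -1.44 in GFP untreated and -0.76 and -0.84 in GFP IFNB libraries. In LTR8B cells it was -1.61, -1.51, -1.37 and -1.51 without IFNB and -0.68, -0.84, -0.79 and -0.87 with it. The ratio was higher in each of the 6 IFNB libraries than in any of the 6 untreated ones, and library scaling cancels in it. The mean difference was 0.78, a 1.72-fold shift toward SAMD9L, with p = 0.00476 in a two-sided exact permutation test of treatment within guide, the smallest p that its 420 arrangements can give. Between guides the ratio differed by 0.08 (two-sided exact permutation p = 0.413). The sign of that difference rested on 1 library, since without GFP untreated replicate 1 it was -0.030 (two-sided exact permutation p = 0.600). With these 2 tests as a family the adjusted p-values were 0.00952 and 0.413 by Benjamini-Hochberg after these exact permutation tests.

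**Figure D2:**
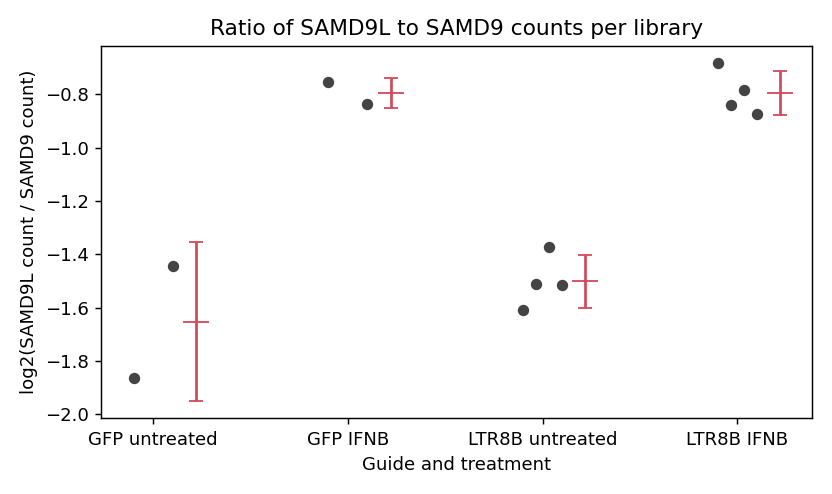
Log2 ratio of SAMD9L to SAMD9 counts in each library, by guide and treatment; points are libraries, and the bar beside them is the group mean with 1 SD. The IFNB libraries lie between -0.87 and -0.68, above the untreated libraries, which lie between -1.86 and -1.37.

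The LTR8B guide, with which SP140 was low, was then compared with the GFP guide. Neither gene was called in any guide comparison, where the background was 0.36% of tested genes called without IFNB, 0.354% with it and 2.14% averaged over treatments. In untreated cells the log2 difference of LTR8B from GFP was 0.07 for SAMD9 (95% interval -0.10 to 0.24, adjusted p = 0.78 by edgeR). For SAMD9L it was 0.23 (95% interval -0.0015 to 0.47, adjusted p = 0.449 by edgeR), and the ranges of the groups overlapped for both genes. With IFNB the difference was -0.11 for SAMD9 (95% interval -0.25 to 0.03, adjusted p = 0.652 by edgeR), with overlapping ranges. For SAMD9L it was -0.11 as well (95% interval -0.26 to 0.04, adjusted p = 0.679 by edgeR). Its 4 LTR8B libraries stood at 274 to 297 CPM and its 2 GFP libraries at 307 and 311 CPM. How many of all tested genes separate by guide in this way was not counted. Averaged over treatments the differences were -0.02 for SAMD9 (95% interval -0.13 to 0.09, adjusted p = 0.888 by edgeR) and 0.06 for SAMD9L (95% interval -0.08 to 0.20, adjusted p = 0.712 by edgeR). The signs of these averages rested on single libraries, being 0.0013 for SAMD9 and -0.024 for SAMD9L without GFP untreated replicate 1, and 0.0052 for SAMD9 without GFP IFNB replicate 2.

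The IFNB response itself was not called different between guides for either gene, and 0% of tested genes were called in this interaction by edgeR (489 had an unadjusted p under 0.05, and DESeq2 and limma-voom also called 0). The response of SAMD9 in LTR8B cells minus that in GFP cells was -0.18 (95% interval -0.40 to 0.04, adjusted p = 0.996 by edgeR). That of SAMD9L was -0.34 (95% interval -0.62 to -0.07, adjusted p = 0.996 by edgeR), and it ranked 124 of 16393 by p. This value depended on the pair of GFP untreated libraries, being -0.17 without replicate 1 and -0.50 without replicate 2. The order of SAMD9L levels was thus GFP untreated, LTR8B untreated, LTR8B IFNB and GFP IFNB, and that of SAMD9 was the same, with neither neighbouring guide pair separated by the test.

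Most genes of the interferon signalling list rose. Of 12 tested genes from the interferon receptor to ISGF3 and its regulators, 8 rose and 0 fell with IFNB averaged over guides, against 5.28% of all tested genes called higher and 1.01% lower. Their median log2 fold change was 1.77, and that of all tested genes -0.01. The list holds targets of interferon signalling as well as its components, so its count is a description and not a test. IRF9, a DNA-binding subunit of ISGF3, rose from 4.07 to 119.7 CPM in GFP cells and by 4.71 on the log2 scale (SE 0.09). STAT2 rose by 2.29 (SE 0.06) and USP18, a protease that dampens receptor signalling, by 6.22 (SE 0.12), so that SAMD9 and SAMD9L lay between IRF9 and USP18 in size. The receptor chain IFNAR2 rose by 0.37 (SE 0.07, adjusted p = 0.00341 by edgeR). It was called in LTR8B cells (0.47, SE 0.09, adjusted p = 0.00182 by edgeR) but not in GFP cells (0.27, SE 0.12, adjusted p = 0.411 by edgeR). Its partner IFNAR1 (0.15, SE 0.08, adjusted p = 0.346 by edgeR) and the kinase JAK1 (0.04, SE 0.05, adjusted p = 0.787 by edgeR) did not pass the test.

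Other interferon-induced genes that act on translation or RNA mostly rose as well. Of 20 tested, 18 rose and 0 fell, against the same background, with a median of 2.65. They were listed as genes that interferon induces, so a rise was built into the list and the count is only a description. IFIT2 and IFIT3, which bind foreign RNA and translation factors in complexes with IFIT1, rose by 8.17 (SE 0.07) and 6.31 (SE 0.07) on the log2 scale. OAS2, which makes the activator of RNase L, rose by 7.54 (SE 0.09) and IFIT5 by 3.21 (SE 0.05). The 2 that did not pass were KHNYN (0.14, SE 0.06, adjusted p = 0.257 by edgeR) and SLFN13, a tRNA-cutting Schlafen protein that stood under 1 CPM (0.02, SE 0.32, adjusted p = 0.984 by edgeR). The SLFN13 value was -0.11 without GFP untreated replicate 1, -0.14 without GFP IFNB replicate 1, -0.09 without LTR8B untreated replicate 1 and -0.06 without LTR8B IFNB replicate 2.

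Lists around the known substrate and partners of the proteins held called genes at counts near the background of 5.28% of all tested genes called higher and 1.01% lower. Of 12 tested genes listed for charging phenylalanine tRNA or for modifying tRNA anticodon loops in general, 0 were called, and the median was -0.08. Those with the smallest adjusted p by edgeR were TRMT12 (-0.24, SE 0.07, adjusted p = 0.0708) and FTSJ1 (-0.18, SE 0.06, adjusted p = 0.0801), a wybutosine synthesis enzyme and a ribose methyltransferase. TRMT12 passed without GFP untreated replicate 2 (adjusted p = 0.0441 by edgeR), and FTSJ1 passed without LTR8B untreated replicate 3 (adjusted p = 0.0202 by edgeR) and in DESeq2 (adjusted p = 0.0472). They were followed by FARSA, a subunit of the phenylalanine tRNA synthetase (-0.15, SE 0.06, adjusted p = 0.175 by edgeR), and the deaminase subunit ADAT2 (-0.17, SE 0.08, adjusted p = 0.305 by edgeR). Of 13 genes that sense stalled ribosomes or respond to that stress, 1 rose, the stress transcription factor ATF3 (1.14, SE 0.14, adjusted p = 0.00019 by edgeR), and the median was 0.01. MAP3K20, the kinase that senses colliding ribosomes, was at 0.07 (SE 0.06, adjusted p = 0.608 by edgeR).

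In the early endosome list, drawn up because SAMD9L has been linked to endosome fusion, 0 of 12 tested genes were called, again near that background, and the median was -0.03. EEA1, the tether of early endosomes, was at 0.14 (SE 0.11, adjusted p = 0.599 by edgeR) and RGL2, a reported SAMD9 partner, at -0.11 (SE 0.07, adjusted p = 0.471 by edgeR). Among other STAND P-loop NTPases, 9 of 12 listed were tested and the median was 0.16. Against 5.28% of all tested genes called higher, 2 of the 9 rose. These were NLRC5, the activator of MHC class I genes (1.98, SE 0.08, adjusted p = 2.17e-12 by edgeR), and the bacterial sensor NOD1 (1.06, SE 0.09, adjusted p = 2.59e-07 by edgeR). CIITA, the MHC class II activator, was at 0.96 (SE 0.33, adjusted p = 0.12 by edgeR) on mean levels under 1 CPM. It passed without LTR8B IFNB replicate 2 (adjusted p = 0.0475 by edgeR). Its value was 1.72 (SE 0.52, adjusted p = 0.107 by edgeR) in GFP cells and 0.20 (SE 0.41, adjusted p = 0.936 by edgeR) in LTR8B cells. In the guide comparisons and the interaction, 0 members of these lists were called. The background was 0.36% of tested genes without IFNB, 0.354% with it, 2.14% averaged over treatments and 0% in the interaction. The count for these lists is near that background.

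**Figure D3:**
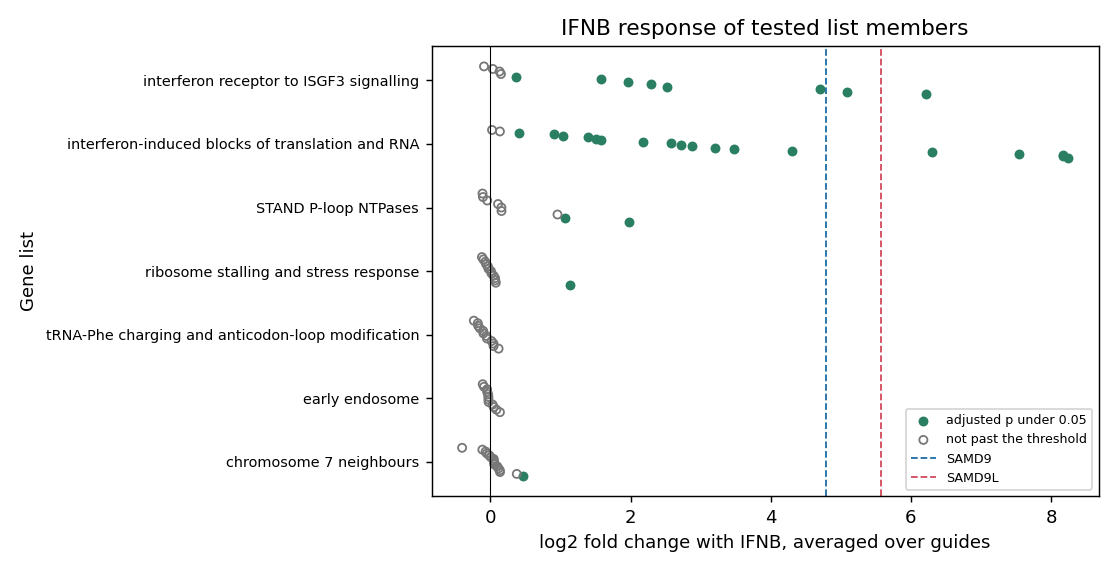
Log2 fold change with IFNB, averaged over guides, for the tested members of each gene list; filled points passed an adjusted p of 0.05 by edgeR and open points did not, and dashed lines mark SAMD9 (4.79) and SAMD9L (5.57). Filled points gather in the signalling list (8 of 12) and the list of blocks of translation and RNA (18 of 20), and the tRNA and endosome lists hold none.

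The chromosome 7 neighbours of the pair were examined in the same comparison. The nearest annotated genes, RN7SL7P at 128 kb on the SAMD9 side and HEPACAM2 at 40.2 kb on the SAMD9L side, had 0 counts in the 12 libraries. The nearest tested genes were CDK6, a cell cycle kinase 263 kb away (-0.07, SE 0.10, adjusted p = 0.806 by edgeR, and 0.041 without GFP IFNB replicate 1), and VPS50, a vesicle tethering subunit 84.0 kb away (-0.05, SE 0.06, adjusted p = 0.75 by edgeR). Of the 21 neighbours listed, 16 were tested and 1 rose, with a median of 0.05. This count is near the 5.28% of all tested genes called higher. The gene that rose was ANKIB1, a ubiquitin ligase 698 kb away, which went from 78.1 to 115 CPM in GFP cells and from 83.7 to 109 CPM in LTR8B cells (0.47, SE 0.04, adjusted p = 6.68e-07 by edgeR).

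**Figure D4:**
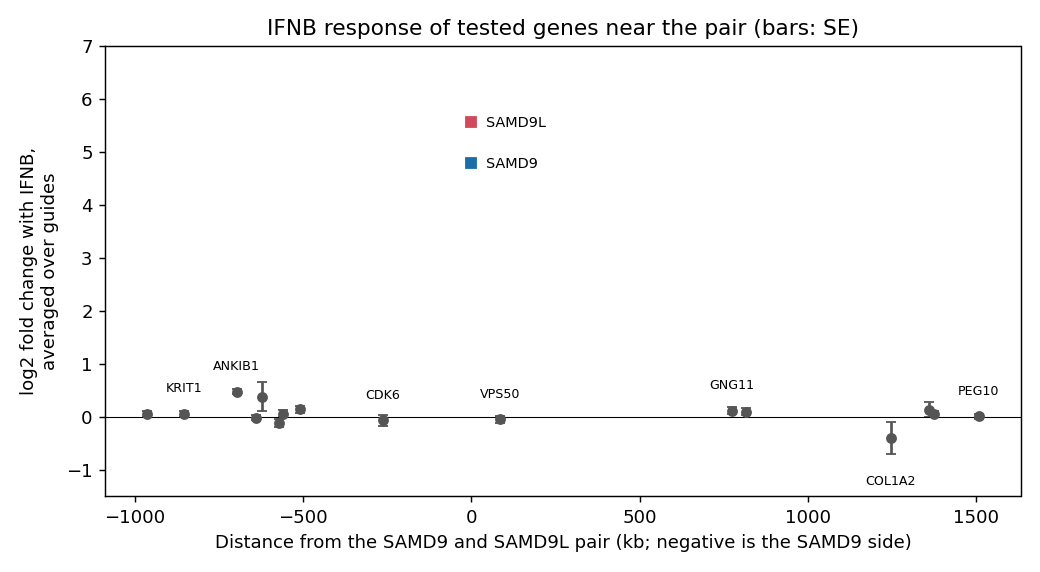
Log2 fold change with IFNB, averaged over guides, of the 16 tested neighbours and the pair, against distance in kb from the pair (negative on the SAMD9 side); bars are SE, and only some genes are named. SAMD9 (4.79) and SAMD9L (5.57) stand apart from the neighbours, of which ANKIB1, at 0.47, is the highest.

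The genes whose pattern over the 12 libraries was most like each member were found by the root mean square difference of log2(CPM + 1) values after subtracting each gene's mean, among 12989 genes with a mean of at least 1 CPM. For SAMD9 they were BATF2 (0.198), RIGI (0.200), RTP4 (0.212), IFIH1 (0.212) and IRF9 (0.222), where a smaller value means a closer pattern. RIGI and IFIH1 encode cytoplasmic sensors of viral RNA. RTP4 was at 0.504 and 0.353 CPM in the untreated GFP and LTR8B groups and reached the mean of 1 CPM only through its IFNB libraries. The added 1 shrinks the change of such a gene, and its fitted log2 fold change was 6.23 against 4.79 for SAMD9. For SAMD9L they were RIGI (0.180), USP18 (0.185), XAF1 (0.201), IFI6 (0.201) and IFI44 (0.208). The same holds for XAF1, at 0.184 and 0.329 CPM in the untreated groups, with a fitted log2 fold change of 7.83 against 5.57 for SAMD9L. Although neighbours and paralogs, the pair were not each other's closest match: SAMD9L was number 14 for SAMD9, and SAMD9 number 8 for SAMD9L, at a difference of 0.329. By Pearson correlation of the same values the pair were at 0.999 and ranks 7 and 6, 106 and 110 genes passed 0.99, and 0 of the 5 genes named for each member were among its top 5. The points of these correlations share libraries and a large common shift with IFNB. Of the 8 named genes with a RefSeq window, 4 held GAAANNGAAA and 7 held AANNGAAA. By window, the shares were 12.2% and 30.7% for genes that rose with IFNB, and 3.02% and 17.8% for tested genes. The 8 are counted by gene, and XAF1 and IFI44 have 2 windows each. They were picked by their pattern with IFNB, so the counts are a description.

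**Figure D5:**
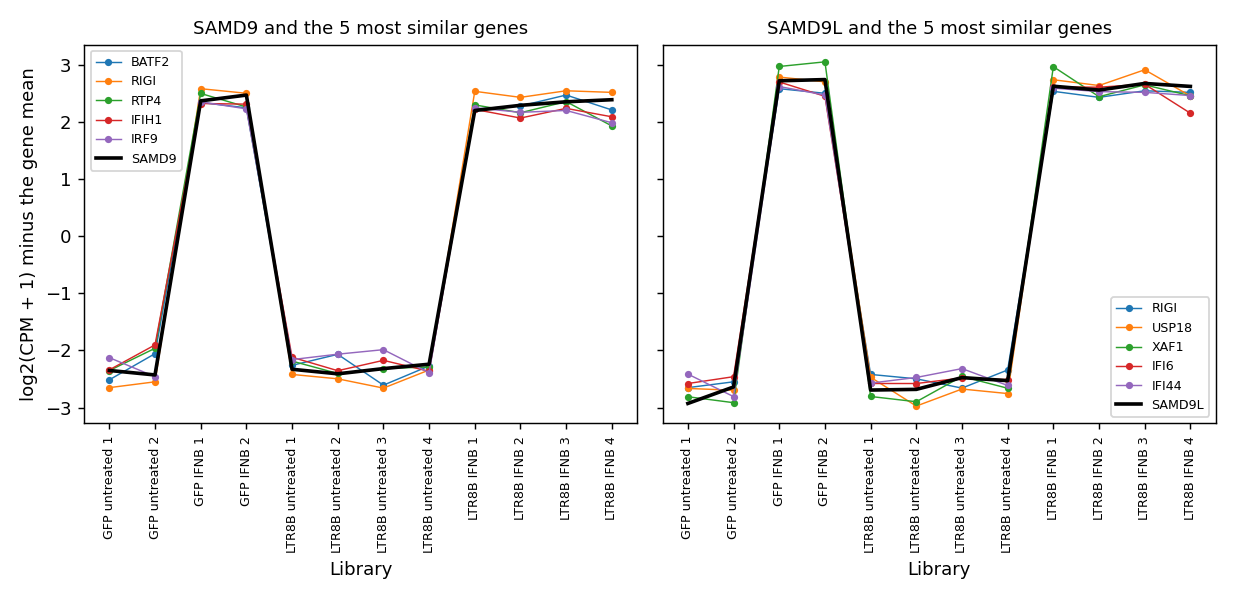
Log2(CPM + 1) minus the gene's mean over the 12 libraries for SAMD9 (left) and SAMD9L (right), in black, and the 5 genes with the smallest root mean square difference from each; lines join the libraries of 1 gene and show no order in time. Each gene is low in the 6 untreated and high in the 6 IFNB libraries.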

How the data were processed

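RNA of 12 HT1080 libraries in 4 groups was measured as counts per gene. The authors deposited whole-number counts, made with Salmon 0.13.1, DESeq2 1.38.3 and hg38 per the submitters' processing notes. The role and order of these tools, the annotation release and the use of strand are not given in the sources used here. A second deposited table, of normalized signal, was the count table after division by library factors of 0.600 to 1.46, and served only as a check. Columns were matched to samples by their titles, and 0 columns were left unmapped. No replicates were duplicates, since chi-square per degree of freedom between them ran from 2.74 to 17.4. Floors and counting errors cover counting error only.

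Gene symbols came from a table of gene names, positions from GENCODE release 29 on hg38. Its identifier versions differ from the deposited ones for both genes.

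Counts were tested with edgeR 4.0.16 in R 4.3.3: filterByExpr on the 4 groups (minimum count 10, minimum total 15), TMM scaling, and 1 robust quasi-likelihood model over the 12 libraries, with group means and no covariate. Benjamini-Hochberg adjustment ran over the 16393 tested genes at 0.05. SE is the log2 fold change over the root of F, and 95% intervals use t quantiles on 16.7 degrees of freedom. Fits were tested on simulated data. The alternatives were median-of-ratios scaling, no filter, DESeq2 1.42.0, limma-voom (limma 3.58.1), replicate blocks and leaving out each library. Named genes were the pair, SP140, the nearest neighbours and any called neighbour, up to 4 members per list with the smallest adjusted p in the averaged IFNB response, and 5 genes most like each member. IFNAR1, IFNAR2, JAK1, KHNYN, SLFN13 and MAP3K20 were named after their values were seen. The members and lists were chosen with earlier results of these data known. The labels name single and unique dual index adapters but not which library had which, so that batch cannot be told apart. Python 3.11.15, pandas 2.3.3, NumPy 2.4.6, SciPy 1.17.1, Biopython 1.88 and matplotlib 3.10.9 did the rest. No protein sequences were used here.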

Additional observations from a re-analysis of the deposited data

How the results depend on the processing

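SAMD9 and SAMD9L kept the direction and call of their IFNB responses under every alternative run. Averaged over guides the log2 fold change ranged from 4.77 to 4.82 for SAMD9 and from 5.48 to 5.65 for SAMD9L, and the IFNB shift of the SAMD9L to SAMD9 ratio from 0.64 to 0.89. In the guide comparisons and the interaction neither gene was called by any alternative run. Directions reversed only on leaving out 1 library. Without GFP untreated replicate 1 the guide difference was -0.030 for the ratio, 0.0013 for SAMD9 and -0.024 for SAMD9L averaged over treatments (leave-one-out ranges -0.030 to 0.18, -0.044 to 0.0052 and -0.024 to 0.14). Without GFP IFNB replicate 2 it was 0.0052 for SAMD9, and without GFP IFNB replicate 1 CDK6 was at 0.041 with IFNB (range -0.197 to 0.041). SLFN13, under 1 CPM, ranged from -0.141 to 0.168 and was below 0 on leaving out any of 4 single libraries.

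Counts over all tested genes moved more. The guide comparison called 59 genes in untreated cells (325 with no filter, 177 in DESeq2, 22 to 94 leaving out 1 library), 58 with IFNB (260, 120, 21 to 69) and 351 averaged (775, 590, 93 to 461). The IFNB response in GFP cells called 524 genes. It called 344 and 351 without GFP untreated replicates 1 and 2, and 459 and 375 without GFP IFNB replicates 1 and 2. The interaction called 0 genes, against 13 with no filter and 1 without GFP untreated replicate 1; the cause was not tested.

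Replicate numbers are shared between groups, but the labels do not say what they mark. Over the LTR8B libraries, deviations of same-numbered libraries from their group means correlated at 0.0794 to 0.288, and 7 of 8 correlated best with their own number. Between guides, same-numbered libraries correlated at -0.191 to -0.054 in the same treatment and at -0.351 to -0.086 in the other. Each GFP group has 2 libraries, whose deviations from their mean mirror each other. These values therefore cannot settle whether a number is shared across guides. With the number as a replicate block the averaged guide comparison called 181 genes, and with a block within each line the averaged IFNB response called 1598 and the interaction 4. The blocked log2 fold changes with IFNB in GFP cells were 4.88 for SAMD9 and 5.74 for SAMD9L. FTSJ1 passed with the replicate block (adjusted p = 0.0335 by edgeR) and with the block within lines (adjusted p = 0.0148 by edgeR). TRMT12 passed with the block within lines (adjusted p = 0.0216 by edgeR). In paired differences the ratio shift with IFNB was 0.78 (exact permutation p = 0.03125, the smallest of 64 sign flips).

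Depth limits SAMD9L most in untreated cells, where 122 to 221 counts per library give a counting error of 6.73% to 9.05%.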
